A study of Mus musculus with 12 samples.

Results

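The nonclassical MHC class Ib genes H2-Q1, H2-Q2, H2-Q4, H2-Q6, H2-Q7, H2-Q10, H2-T22, H2-T23, H2-T24 and H2-M3 were followed across 12 MC38 tumors. These are 10 of the 18211 genes in the expression table and were chosen by symbol, because H2-Q6 was among the most clearly raised genes of the combination group and because reads can be divided between genes so alike. The values that chose them therefore come from the combination against CK, which is given below for these genes as a description without a test. MC38, a mouse colon carcinoma line, was grown under the skin of female C57BL/6 mice bought at 5 weeks of age, and each of the 4 groups held 3 tumors. CK mice received vehicle. PB-020 mice received PB-020, an inhibitor of the receptor kinase IGF-1R, by mouth at 50 mg/kg each day from the division into groups on day 7. Anti-PD-1 mice received the antibody on days 9, 12, 15 and 18, at 200 µg a mouse each time, and the PB-020+anti-PD-1 mice received both. All groups thus carried the same tumor line in an immunocompetent host of the same strain, and tumor and host transcripts were read together from whole tumor tissue.

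Class Ib molecules resemble the classical class I molecules H2-K and H2-D in fold and, for most, in their partner β2-microglobulin, but they vary little between individuals and present restricted ligands. H2-T23 encodes Qa-1, which shows a leader peptide of other class I molecules to the CD94/NKG2 receptors of natural killer and T cells. H2-Q6, H2-Q7 and their tandem copies H2-Q8 and H2-Q9 encode the Qa-2 antigens, H2-M3 presents formylated peptides, H2-T22 is bound by some γδ T cells, H2-Q4 encodes the soluble Qb-1 molecule and H2-Q10 a class I molecule secreted by liver. Class I genes are known targets of interferon gamma, with IRF1 and NLRC5 among their activators.

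The members lie on chromosome 17 of GRCm38.p6. The H2-Q members span chr17:35320525-35474563, H2-T24, H2-T23 and H2-T22 lie at chr17:36003471-36020800, chr17:36029977-36032701 and chr17:36037128-36042742, and H2-M3 lies at chr17:37270234-37274485. H2-Q6 (NCBI gene 110557, chr17:35424850-35430055) and H2-Q7 (NCBI gene 15018, chr17:35439140-35443773) are neighbors on the forward strand. The stretch below is shown because a read inside it fits both genes equally. It is the first 259 bases of exon 4, coding and identical in H2-Q6 (chr17:35427864-35428122) and H2-Q7 (chr17:35442267-35442525).
H2-Q6 and H2-Q7, exon 4: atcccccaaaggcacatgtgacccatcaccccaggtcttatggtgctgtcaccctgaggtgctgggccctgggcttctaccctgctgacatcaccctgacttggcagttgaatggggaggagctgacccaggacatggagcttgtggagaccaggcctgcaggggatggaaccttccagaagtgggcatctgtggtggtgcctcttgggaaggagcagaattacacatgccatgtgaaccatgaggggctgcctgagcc
With the last 6 bases of exon 3 it made a run of 265 identical bases, longer than the 150 bases of a read. Of all 150-base windows of the H2-Q6 transcript, 5.99% also occurred in another gene of the GENCODE annotation, against 9.68% for H2-Q7, 4.64% for H2-Q1, 0.931% for H2-T22, 0.831% for H2-T23 and 0 for H2-Q2, H2-Q4, H2-Q10, H2-T24 and H2-M3. H2-Q8 and H2-Q9 were not in that annotation and were not counted here. The deposited values show that reads were divided, though not with which gene. Expected counts of H2-Q4, H2-Q6, H2-Q7 and H2-T22 were not whole numbers, within 0.005, in any of the 12 tumors, those of H2-T23 in 9 of 12, and those of H2-T24 in 1 of 12, whereas H2-M3 was whole in all 12.

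RefSeq promoters (250 bases before to 50 after the start) matched 8 of the 10 members. Those shown are the promoters of the neighbors H2-Q6 and H2-Q7 and, for contrast, of H2-T23 and H2-M3. Capitals mark the letters GGGATTCCC (the core of an NF-κB site), TTTCACTT (the core of an interferon response motif) and CCAAT, each searched on both strands. ATTGG is CCAAT on the other strand, and no motif overlaps another in the sequences shown.
H2-Q6, chr17:35424600-35424899, forward strand: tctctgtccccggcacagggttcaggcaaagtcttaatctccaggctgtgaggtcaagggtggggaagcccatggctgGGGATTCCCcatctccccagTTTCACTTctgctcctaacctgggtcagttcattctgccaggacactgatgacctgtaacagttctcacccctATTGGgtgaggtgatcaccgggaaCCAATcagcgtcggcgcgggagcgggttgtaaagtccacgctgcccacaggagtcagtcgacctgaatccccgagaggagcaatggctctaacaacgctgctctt
H2-Q7, chr17:35438905-35439204, forward strand: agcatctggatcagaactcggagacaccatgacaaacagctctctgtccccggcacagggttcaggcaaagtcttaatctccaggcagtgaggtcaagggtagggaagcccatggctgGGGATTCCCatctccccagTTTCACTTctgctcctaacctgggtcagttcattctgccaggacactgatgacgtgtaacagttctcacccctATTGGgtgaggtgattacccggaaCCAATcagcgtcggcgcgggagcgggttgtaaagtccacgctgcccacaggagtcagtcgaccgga
H2-T23, chr17:36032652-36032951, reverse strand: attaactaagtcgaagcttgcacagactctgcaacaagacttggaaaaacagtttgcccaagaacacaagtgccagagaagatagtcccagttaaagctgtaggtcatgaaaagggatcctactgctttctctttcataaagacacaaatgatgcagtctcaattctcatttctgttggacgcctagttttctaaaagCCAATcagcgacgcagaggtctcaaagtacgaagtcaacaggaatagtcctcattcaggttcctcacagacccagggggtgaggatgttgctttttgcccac
H2-M3, chr17:37269984-37270283, forward strand: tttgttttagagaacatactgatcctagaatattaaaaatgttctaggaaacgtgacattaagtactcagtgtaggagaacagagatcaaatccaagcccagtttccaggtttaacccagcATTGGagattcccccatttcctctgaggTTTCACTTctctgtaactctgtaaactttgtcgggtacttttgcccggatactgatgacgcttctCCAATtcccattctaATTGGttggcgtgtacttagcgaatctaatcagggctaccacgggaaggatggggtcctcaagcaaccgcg
GGGATTCCC was present in the promoters of H2-Q6 and H2-Q7 alone among the 8, but also in those of the classical genes H2-K1 and H2-D1, and in 0.353% of 32851 mouse promoters. TTTCACTT occurred in 6 of the 8 (H2-Q4, H2-Q6, H2-Q7, H2-Q10, H2-T22 and H2-M3) against 1.60% of all promoters, and CCAAT in 7 of the 8 against 37.4%. The aligned promoters of H2-Q6 and H2-Q7 were 97.3% identical over 261 columns, with 6 mismatches and 1 gap, whereas H2-Q6 shared 83.2% with H2-K1, 81.7% with H2-Q4, 80.9% with H2-D1 and 77.2% with H2-Q10, and 51.4% with H2-T23 and 56.5% with H2-M3. A match is a description of the letters, not evidence of binding.

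Expected counts summed to between 16545394 and 17217035 per tumor, so depth hardly differed. Defining epithelial markers of the labelled colon carcinoma were close to 0, with Krt8 at no more than 0.14 FPKM and Epcam at no more than 0.54 FPKM in any tumor, and Cdh1 at 1.59 to 3.96 FPKM. Anti-PD-1 tumor 1 stood apart, with 8 skeletal muscle markers that summed to 732 CPM, against 12.8 to 77.1 in the other 11 tumors. The anti-PD-1 differences are therefore also given without this tumor. CPM are counts scaled to the library size after the TMM adjustment described below. In whole tumors, fewer cells of a type and less RNA per cell cannot be told apart.

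Enough counts for the test were present for 7 members. In CK tumors their mean levels per length ran from H2-Q4 at 133 ± 36.9 FPKM (SD, n = 3) and H2-T22 at 96.7 ± 33.3 FPKM, whose ranges overlapped, through H2-T23 at 53.7 ± 19 FPKM, H2-M3 at 17.7 ± 2.8 FPKM and H2-Q7 at 8.75 ± 4 FPKM, down to H2-Q6 at 3.19 ± 0.38 FPKM and H2-T24 at 3.11 ± 0.66 FPKM, which overlapped as well. The ranges of H2-T22 and H2-T23 also overlapped, while H2-T23, H2-M3, H2-Q7 and H2-Q6 each lay apart from the next. The classical genes H2-K1 and H2-D1 stood at 863 ± 168 and 891 ± 118 FPKM. Of the expected counts of H2-K1, H2-D1 and the 10 members, the members held 13.5% to 16.8% in CK, 14.3% to 15% in PB-020, 15.8% to 16.1% in anti-PD-1 and, with both agents, 15.4% to 16.1%.

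**Figure D1:**
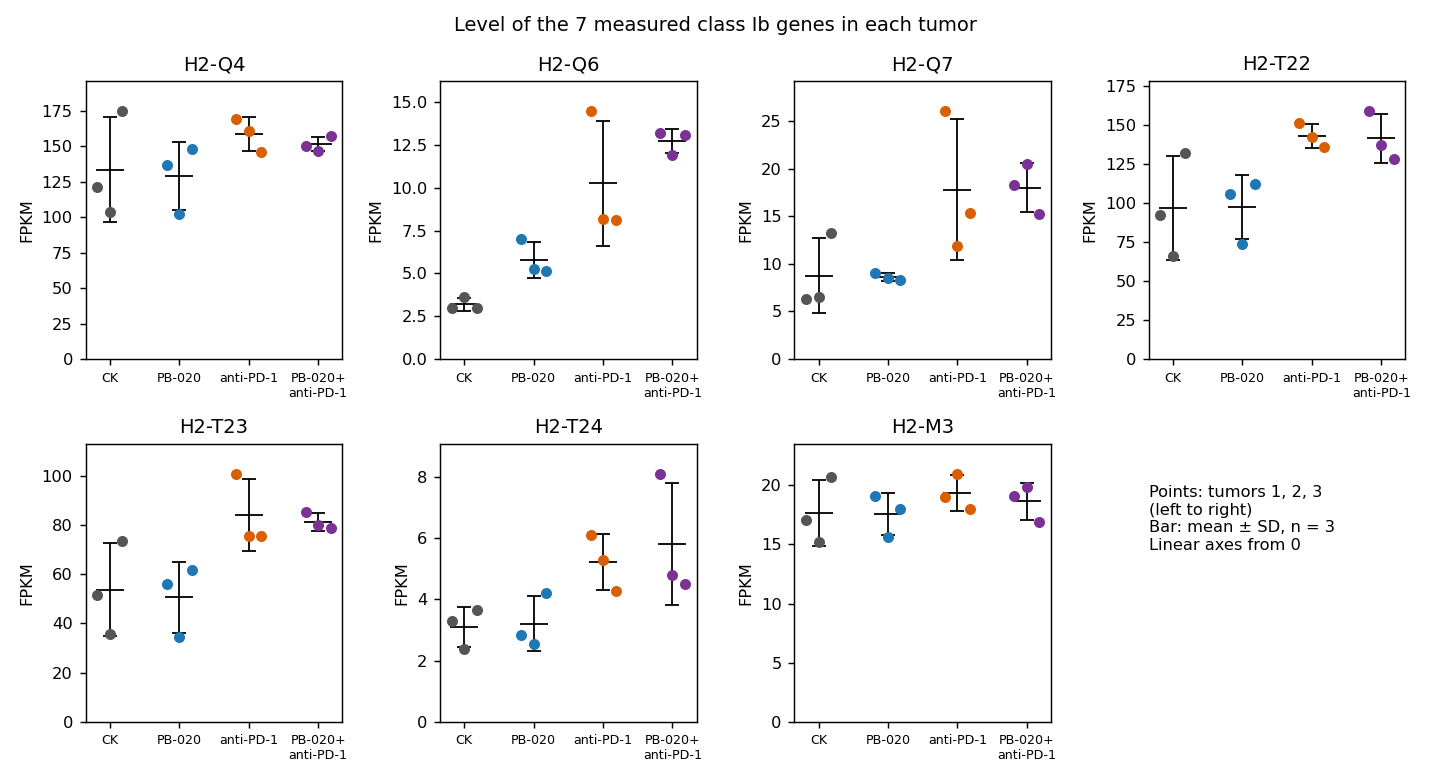
FPKM of the 7 tested class Ib genes in each of the 12 tumors, on linear axes from 0, with tumors 1 to 3 from left to right in each group and the mean ± SD over 3 tumors in black. H2-Q6 lay at 2.96 to 3.62 in CK, 5.12 to 7 in PB-020, 8.11 to 14.5 in anti-PD-1 and 11.9 to 13.2 in the combination, whereas H2-M3 stayed between 15.2 and 21 in all tumors.

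H2-Q6 was the member that differed most between groups. It stood at 2.98, 3.62 and 2.96 FPKM in the CK tumors, at 7, 5.24 and 5.12 in PB-020, at 14.5, 8.18 and 8.11 in anti-PD-1 and at 13.2, 11.9 and 13.1 in the combination. No PB-020 tumor overlapped CK, and no anti-PD-1 tumor overlapped PB-020. This order was shared by 79 of 13563 tested genes (0.582%) and by no other member. The CK tumors also served to choose H2-Q6, so the order is only in part independent. Its step from CK to PB-020 was not present in the sum with H2-Q8, given below. The H2-Q6 levels rest on few reads, from 41.2 expected counts in CK tumor 3 to 206 in anti-PD-1 tumor 1. The group means were 2.63 ± 0.309, 4.83 ± 0.885 and 8.6 ± 3.02 CPM in CK, PB-020 and anti-PD-1 (SD, n = 3), and the highest combination tumor reached 10.9 CPM. The means of PB-020, anti-PD-1 and the combination were 1.84, 3.27 and 4.04 times that of CK.

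Against CK, H2-Q6 rose with anti-PD-1 by 1.71 on the log2 scale of CPM (SE 0.23, adjusted p = 0.0067, edgeR quasi-likelihood test with Benjamini-Hochberg adjustment over all genes tested). It was the 1 of 7 tested members called, where 8.26% of all genes were called and 4.18% were called higher. The CK tumors of this comparison also served to choose the gene, so it is only in part independent. Without anti-PD-1 tumor 1 the difference was 1.39 (adjusted p = 0.0035), and over 20 alternatives the adjusted p ran from 3.6e-08 to 0.0504, the last from a fit of these 2 groups alone. With PB-020 the difference was 0.88 (approximate 95% interval 0.43 to 1.33), which was not called (adjusted p = 0.87). The same CK tumors entered that comparison. In the combination H2-Q6 was 2.01 higher than in CK (SE 0.23), the contrast that chose it.

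The PB-020 difference of H2-Q6 was not present in the sum of H2-Q6 and H2-Q8. H2-Q8 was listed at 58.2, 29.2 and 108 expected counts in the CK tumors, at 0, 28.7 and 28.6 in PB-020, at 130.2, 59.2 and 74.9 in anti-PD-1 and at 57.4, 78.7 and 29.5 in the combination. Some of these values lay close together: 4 tumors of 3 groups lay between 28.6 and 29.5 and 3 further tumors between 57.4 and 59.2. The others were 0, 74.9, 78.7, 108 and 130.2. H2-Q6 held 27.5% to 63.6% of the expected counts of the pair in CK but 71.6% or more in PB-020, 60.3% to 66.2% in anti-PD-1 and 67.8% to 86.2% in the combination. CK tumor 3 had the lowest H2-Q6 and the highest H2-Q8 of its group, and PB-020 tumor 1 the highest H2-Q6 and no H2-Q8.

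Added together, H2-Q6 and H2-Q8 reached 101, 80.3 and 149.6 expected counts in the CK tumors and 98.3, 102 and 101 in PB-020. In CPM, the PB-020 mean was 0.927 times that of CK, and all 3 PB-020 tumors lay within the CK range. The sum was 337, 175 and 189 expected counts in anti-PD-1 and 240.4, 244 and 214 in the combination, all above every CK tumor. These groups stood at 2.15 and 2.17 times the CK mean in CPM, and at 2.12 and 2.11 times in expected counts. In CPM, the sum of H2-Q6 to H2-Q9 gave 1.02, 2.2 and 2.21 times the CK mean in PB-020, anti-PD-1 and the combination. As a mean of the pair, the combination stood at 13.9 and anti-PD-1 at 13.8 CPM. With anti-PD-1 tumor 1 left out, the pair stood at 10.9 CPM in that group, 1.69 times the CK mean, with both tumors above CK and below every combination tumor, and the sum of H2-Q6 to H2-Q9 was 1.7 times the CK mean. These sums were formed after the values were seen and carry no test.

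**Figure D2:**
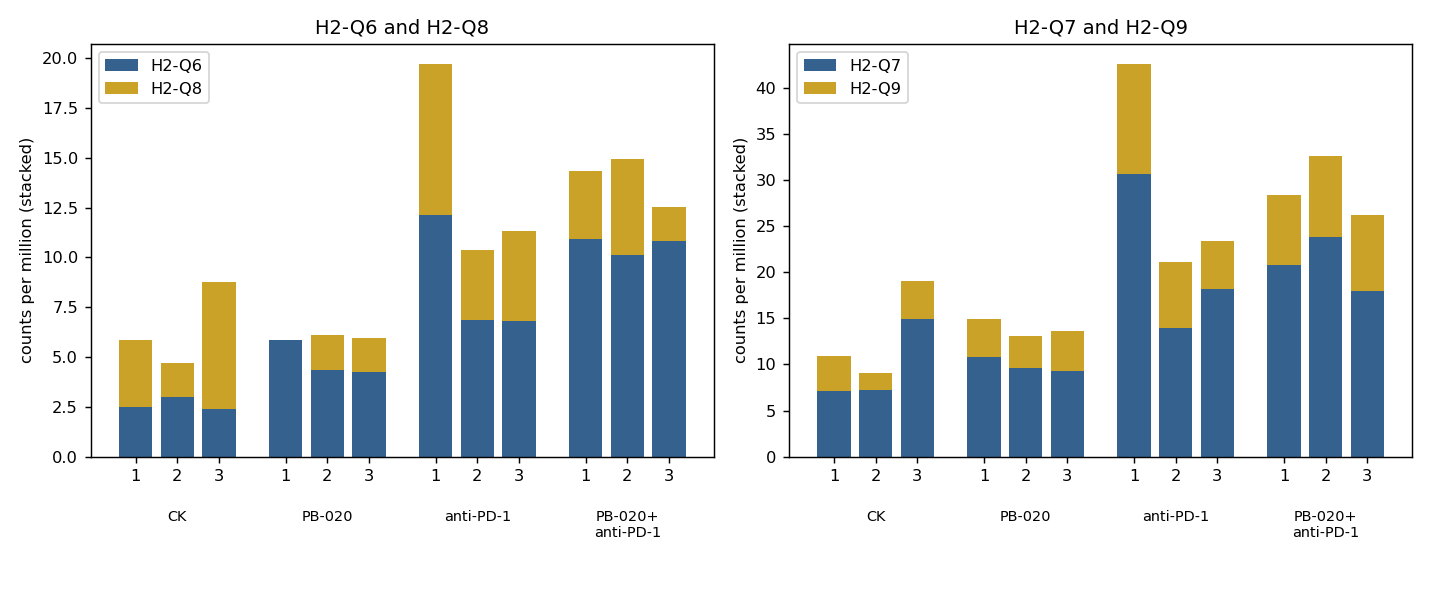
CPM of H2-Q6 stacked with H2-Q8 (left) and of H2-Q7 stacked with H2-Q9 (right) in each of the 12 tumors. CPM are expected counts scaled to the TMM-adjusted library size, and the axes are linear from 0. The height of the H2-Q6 and H2-Q8 bars was 4.68 to 8.75 in CK and 5.85 to 6.08 in PB-020, while the H2-Q6 portion alone was higher in each PB-020 tumor than in each CK tumor.

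H2-Q7 stood at 6.36, 6.57 and 13.3 FPKM in the CK tumors, at 9.09, 8.48 and 8.3 in PB-020, at 26.1, 11.9 and 15.4 in anti-PD-1 and at 18.3, 20.5 and 15.3 in the combination. CK tumor 3 lay above anti-PD-1 tumor 2, so these groups overlapped. The difference between anti-PD-1 and CK was 1.10 (SE 0.34, adjusted p = 0.071, edgeR), which was not called. It was called by DESeq2 (adjusted p = 0.004), and by edgeR without CK tumor 3 (adjusted p = 0.024) or anti-PD-1 tumor 2 (adjusted p = 0.029), and fell to 0.72 without anti-PD-1 tumor 1 (adjusted p = 0.2). Its copy H2-Q9, no member, rose by 1.28 (SE 0.31, adjusted p = 0.028, edgeR), a call lost without anti-PD-1 tumor 1 (0.89, adjusted p = 0.065). H2-Q7 with H2-Q9 gave 1.06 times the CK mean in PB-020 and 2.23 times in both antibody groups, or 1.71 times in anti-PD-1 without tumor 1.

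The H2-T genes stood higher in most antibody-treated tumors than in the others. H2-T23, which encodes Qa-1, stood at 51.7, 35.9 and 73.7 FPKM in CK, at 55.9, 34.3 and 61.7 in PB-020, at 101, 75.6 and 75.4 in anti-PD-1 and at 85.4, 80 and 78.7 in the combination. The 6 antibody-treated tumors stood at 75.4 or more and the 6 others at 73.7 or less. H2-T22 was at 92.5, 65.7 and 132 FPKM in CK, at 106, 74 and 112 in PB-020, at 151, 142 and 136 in anti-PD-1 and at 159, 137 and 128 in the combination. Here combination tumor 3 lay below CK tumor 3. H2-T24 was at 3.29, 2.38 and 3.66 FPKM in CK, at 2.85, 2.53 and 4.22 in PB-020, at 6.12, 5.29 and 4.29 in anti-PD-1 and at 8.12, 4.81 and 4.5 in the combination, with PB-020 tumor 3 above CK tumor 3.

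None of the H2-T differences between anti-PD-1 and CK was called by edgeR. They were 0.81 for H2-T24 (SE 0.26, adjusted p = 0.073, edgeR), 0.67 for H2-T23 (SE 0.27, adjusted p = 0.16) and 0.59 for H2-T22 (SE 0.23, adjusted p = 0.14). In each, all 3 anti-PD-1 tumors lay above all 3 CK tumors, as also for H2-Q6 and for 13.9% of all genes. H2-T24 was called by DESeq2 (adjusted p = 0.033) and by edgeR without combination tumor 1 (adjusted p = 0.04), and H2-T22 by edgeR without CK tumor 3 (adjusted p = 0.038). The differences were 0.70 for H2-T24, 0.52 for H2-T23 and 0.56 for H2-T22 without anti-PD-1 tumor 1. Summed CPM of the H2-T members were 1.01, 1.54 and 1.51 times the CK mean in PB-020, anti-PD-1 and the combination.

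H2-Q4 and H2-M3 differed least. H2-Q4 was at 121, 104 and 175 FPKM in CK, at 137, 102 and 148 in PB-020, at 169.5, 161 and 146 in anti-PD-1 and at 150.3, 147 and 157 in the combination, all within the CK range but for PB-020 tumor 2. Its anti-PD-1 difference was 0.27 (95% interval -0.07 to 0.62, adjusted p = 0.35, edgeR). H2-M3 was at 17.1, 15.2 and 20.7 FPKM in CK, at 19.1, 15.6 and 18 in PB-020, at 19, 21 and 18 in anti-PD-1 and at 19.1, 19.9 and 16.9 in the combination, and its anti-PD-1 difference was 0.15 (95% interval -0.08 to 0.39, adjusted p = 0.43, edgeR). H2-Q4 held 93.6% to 95.3% of the expected counts of the 6 H2-Q members in CK and 86.4% to 92.6% in anti-PD-1, so the H2-Q sum followed it, at 0.994, 1.27 and 1.23 times the CK mean in PB-020, anti-PD-1 and the combination. Without H2-Q4 the same sums were 1.14, 2.27 and 2.41 times the CK mean.

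The other 3 members did not pass the filter on low counts. H2-Q1 ranged from 1.05 to 10.8 expected counts per tumor, H2-Q2 from 0 to 4 and H2-Q10 from 1 to 27. The 27 counts of H2-Q10 were in CK tumor 3, and no other tumor exceeded 6.61. Of 5 hepatocyte markers in the table, Alb, Apoa1 and Ahsg were under 3 counts in every tumor. Apoa2 reached 19 counts, also in CK tumor 3, and Trf, the gene of transferrin, took most of the summed level of the list, which was 60.3 CPM in CK tumor 3 against 35.6 and 40.4 in the other CK tumors and 148 in anti-PD-1 tumor 1. The part of liver transcripts in the H2-Q10 value was not tested. Differences of these 3 members were not detectable at this depth.

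**Figure D3:**
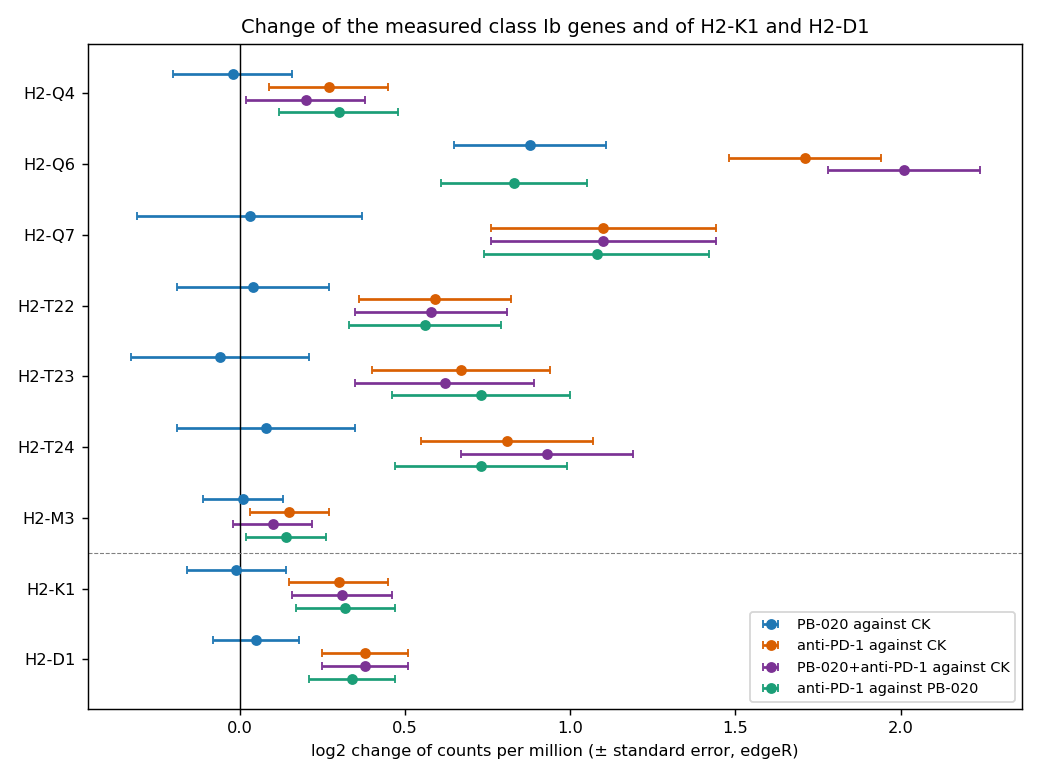
Log2 change of CPM with its standard error (edgeR, n = 3 tumors per group) for the 7 tested class Ib genes and, below the dashed line, H2-K1 and H2-D1. Against CK, PB-020 points lay between -0.06 and 0.08 except for H2-Q6 at 0.88, and anti-PD-1 points lay between 0.15 for H2-M3 and 1.71 for H2-Q6.

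Anti-PD-1 against PB-020 compared groups that had not served to choose the members. The fit drew on all libraries, so its SEs and p-values still rest in part on the CK and combination tumors that had. All 7 members were higher in anti-PD-1, with a median of 0.73 against 0.00 over all genes tested. None of them was called (edgeR, lowest adjusted p = 0.085), where 0.192% of all genes were called. H2-Q7 differed by 1.08 (SE 0.34), H2-Q6 by 0.83 (SE 0.22), H2-T23 by 0.73 (SE 0.27), H2-T24 by 0.73 (SE 0.26), H2-T22 by 0.56 (SE 0.23), H2-Q4 by 0.30 (SE 0.18) and H2-M3 by 0.14 (SE 0.12). At an unadjusted p under 0.05 there were 5 of 7 members, all but H2-Q4 and H2-M3, where 20.5% of all genes and 10.8% in the higher direction met that mark. By DESeq2, H2-Q6 (adjusted p = 0.025) and H2-Q7 (adjusted p = 0.012) were called, as they were by edgeR without anti-PD-1 tumor 2 (adjusted p = 0.027 and 0.046). Without anti-PD-1 tumor 1, the H2-Q6 difference was 0.51 (adjusted p = 0.26).

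PB-020 alone left the members, apart from H2-Q6, close to CK. The other 6 differed by -0.06 for H2-T23 to 0.08 for H2-T24, with standard errors of 0.12 to 0.34. No member was called (edgeR), and neither was any of the 13563 genes (0%), although 741 had an unadjusted p under 0.05 (5.46%) and DESeq2 called 6. H2-Q6 was the 1 member with that unadjusted p and the 1 with all 3 PB-020 tumors above all 3 CK tumors, as had 7.78% of all genes. The CK tumors of this comparison also served to choose H2-Q6, and with H2-Q8 added its log2 difference was -0.11.

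PB-020 added to the antibody gave no called member and no called gene (edgeR, 0%), while 984 genes (7.26%), none of them a member, had an unadjusted p under 0.05, and DESeq2 called 1 gene. The H2-Q6 difference between the combination and anti-PD-1 was 0.30 (95% interval -0.11 to 0.71, adjusted p = 0.78), and the other 6 lay between -0.07 and 0.12. The H2-Q6 difference was 0.63 (adjusted p = 0.47) without anti-PD-1 tumor 1, and both remaining anti-PD-1 tumors lay below every combination tumor. The interaction, which is 0 where the log2 changes of the single treatments add up, was -0.58 for H2-Q6 (SE 0.31, unadjusted p = 0.084, edgeR) and -0.07 to 0.04 for the others. Leaving out anti-PD-1 tumor 1 gave -0.25 for H2-Q6. No gene was called for the interaction, and 310 of 13563 had an unadjusted p under 0.05 (2.29%). The combination tumors of both comparisons, and the CK tumors of the interaction, had also served to choose H2-Q6. For this gene neither comparison is therefore independent of the choice.

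The antibody added to PB-020 raised H2-Q6 by 1.13 (SE 0.22, adjusted p = 0.024, edgeR), the 1 of 7 members called where 3.35% of all genes were called and 1.25% were called higher. The combination tumors of this comparison had also served to choose it. The call was lost without PB-020 tumor 1 (adjusted p = 0.075) or 3 (0.089), or without combination tumor 1 (0.11), 2 (0.076) or 3 (0.0549). H2-Q7 differed by 1.07 (adjusted p = 0.1) and was called without CK tumor 3 (0.0466) or anti-PD-1 tumor 1 (0.042). In CPM, all tested members but H2-M3 had every combination tumor above every PB-020 tumor, as had 14.6% of all genes. For H2-Q4 this did not hold in FPKM, with combination tumor 2 at 147 and PB-020 tumor 3 at 148.

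Against CK, the comparison that chose them, all 7 tested members were higher in the combination, from 0.10 for H2-M3 and 0.20 for H2-Q4 through 0.58 for H2-T22, 0.62 for H2-T23, 0.93 for H2-T24 and 1.10 for H2-Q7 to 2.01 for H2-Q6. Of all genes tested, 17.9% were called there, and no call is given for the members.

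**Figure D4:**
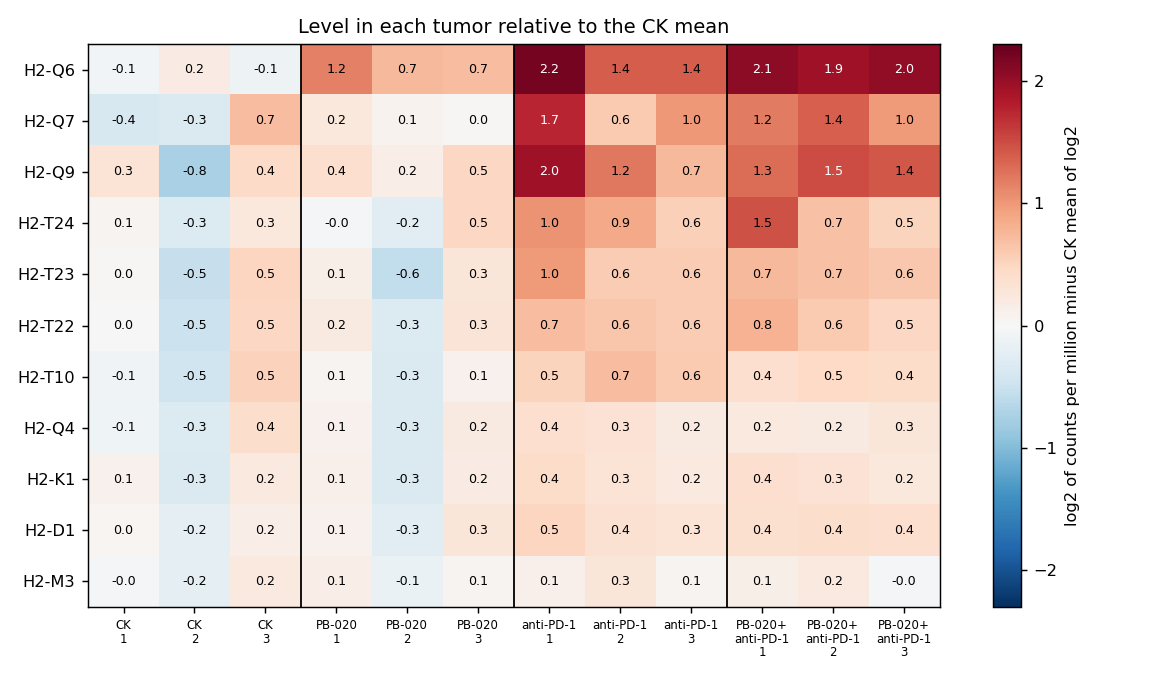
Level of 11 class I genes in each of the 12 tumors as log2 CPM minus the mean log2 of the CK tumors, red for higher and blue for lower, with the value in each cell. Within CK, tumor 2 was lowest and tumor 3 highest for H2-T22, H2-T23 and H2-Q4, while H2-Q6 was lowest in tumor 3.

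In CK, 5 of the 7 members ranked the tumors alike. Tumor 2 was lowest and tumor 3 highest for H2-Q4, H2-T22, H2-T23, H2-T24 and H2-M3, as for H2-K1, H2-D1, B2m, Nlrc5 and Irf1. In PB-020, tumor 2 was again lowest for these 5 members, whereas in the antibody groups their orders differed. H2-Q6 ranked otherwise, with tumor 3 lowest in CK and PB-020. Over the 12 tumors, Pearson's r of log2 CPM was 0.97 between H2-T23 and H2-T22 and 0.93 between H2-T23 and H2-Q4, but 0.68 between H2-T23 and H2-Q6. Between H2-Q6 and H2-Q8 it was 0.10. All points share the 4 groups and anti-PD-1 tumor 1.

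The non-members most like H2-T23 by this measure were Irgm1, an interferon-inducible GTPase (r = 0.99), Trim21, an antibody receptor of the cytosol (0.98), Gm4951 (0.98), H2-K1 (0.98) and Psmb10, an immunoproteasome subunit (0.97). Irgm1 averaged 83.4 FPKM in CK and 83.6 with PB-020, but 159 in the tumors given the antibody alone and 155 in those given both agents. Those most like H2-Q6 were Lsm2, an RNA-binding protein of the spliceosome (0.95), Gpr171, a G protein-coupled receptor (0.95), Bcat1, a branched-chain aminotransferase (0.95), Themis, a T cell signaling protein (0.95) and Neto2 (0.94). Gpr171 averaged 1.2, 1.7, 3.72 and 4.86 FPKM, and Themis 0.133, 0.3, 0.61 and 0.697 FPKM, in CK, PB-020, anti-PD-1 and the combination.

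Of 17 classical class I and peptide-loading genes, 10 rose with anti-PD-1 against CK (edgeR), where 4.18% of all genes were called higher, and the other 7 were higher without a call, with a median of 0.66. Without anti-PD-1 tumor 1 all 17 were higher at a median of 0.58, but the calls fell to 2, against 2.13% of all genes. Psmb9, an immunoproteasome subunit, rose by 0.95 (SE 0.24, adjusted p = 0.042), Tapbpl, a peptide editor, by 0.95 (SE 0.18, adjusted p = 0.013), which was called without that tumor as well (adjusted p = 0.034), Tap1, a subunit of the peptide transporter, by 0.89 (SE 0.23, adjusted p = 0.043) and Tapbp, or tapasin, by 0.75 (SE 0.20, adjusted p = 0.045). H2-D1 differed by 0.38 (SE 0.13, adjusted p = 0.075) and H2-K1 by 0.30 (SE 0.15, adjusted p = 0.2). Against PB-020 the median of the list was 0.53 with none called, and PB-020 against CK gave a median of 0.05 with none called.

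Receptors of class I and Ib molecules were tested for 18 of 20 listed genes, of which 17 were higher with anti-PD-1 than in CK, at a median of 0.94. The 4 called, beside the same 4.18% of all genes, were Klrc1, the NKG2A chain that binds Qa-1 (1.47, SE 0.35, adjusted p = 0.03, edgeR), Cd8a (1.41, SE 0.35, adjusted p = 0.04) and, named after their values were seen, Klrk1 and Cd8b1. With anti-PD-1 tumor 1 left out, 14 of 18 were higher at a median of 0.55, and Klrc1 was not called (1.05, adjusted p = 0.064), while Cd8a (0.84, adjusted p = 0.032), Klrk1 and Cd8b1 were. Klrc3 differed by 2.04 (SE 0.67, adjusted p = 0.072) and Fpr2, a receptor of formylated peptides, by 0.86 (SE 0.82, adjusted p = 0.54). Against PB-020 the median was 0.68 and none was called, and PB-020 against CK gave 0.22 and none.

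In the interferon list, 17 of 21 genes were higher with anti-PD-1 than in CK, and 7 were called, all higher, with a median of 0.63, again beside 4.18% of all genes. The median was 0.60 without anti-PD-1 tumor 1, and 3 were called, among them Ifng (1.54, adjusted p = 0.043). Ifng rose by 2.10 (SE 0.45, adjusted p = 0.018, edgeR), Gbp2, an interferon-inducible GTPase, by 1.54 (SE 0.38, adjusted p = 0.042) and the chemokine Cxcl9 by 1.51 (SE 0.36, adjusted p = 0.04), while Cxcl10 differed by 1.31 (SE 0.41, adjusted p = 0.084). Against PB-020 the median was 0.60 and none was called, and PB-020 against CK gave 0.01 and none. These 3 lists and the class Ib genes had medians above the 0.00 of all genes in the same anti-PD-1 tumors, and no test of the lists was made.

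T cell markers differed between the groups. The 9 T cell markers in the table summed to 21.4 to 28.7 CPM in CK, 30.6 to 37 in PB-020, 45.1 to 114 in anti-PD-1 and 54.7 to 87.7 in the combination. CK, PB-020 and anti-PD-1 thus did not overlap, as for H2-Q6 alone but not for H2-Q6 with H2-Q8. The 8 natural killer and cytotoxic markers summed to 31.1 to 62.3, 39 to 74.4, 58.2 to 168 and 79.6 to 116 in the same groups, so that anti-PD-1 overlapped CK. The 5 B cell markers were low throughout, at 1.05 to 2.28 in CK and 1.02 to 2.58 in anti-PD-1. Anti-PD-1 tumor 1 was the highest of its group for both sums, for the 7 macrophage markers (1633 against 874 and 883), for H2-Q6, H2-Q7 and H2-T23, and for the muscle markers. The 5 erythroid markers ran the other way, at 306 to 702 in CK and 45.7 to 172 in anti-PD-1. All 5 were called lower (edgeR), or 4 without anti-PD-1 tumor 1. Of 6 fibroblast markers, Col3a1, Dcn and Pdgfra were called lower in anti-PD-1 than in CK, while the other 3 were higher without a call, such as Lum (1.18, adjusted p = 0.3, edgeR). Leaving out anti-PD-1 tumor 1 left 1 of the 6 higher, at a median of -0.37, with Lum at 0.06. Col3a1 and Pdgfra were then still called lower, but Dcn was not (adjusted p = 0.062, edgeR). The part of cell composition in the class Ib differences was not tested.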

How the data were processed

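RNA of 12 MC38 tumors, 3 in each of 4 groups named by the labels, was sequenced as pairs of 150 bases. The authors aligned reads with Bowtie2 and quantified genes with RSEM, which shares out a read that fits more than 1 gene. The build is GRCm38.p6 per the labels. The deposited expected counts are not normalized and were whole, within 0.005, in 91% of values. The authors also deposited FPKM values, normalized to length and library total, and TPM values, scaled to a common total per library. Their 12 columns of averages were not used. P-values measure the spread between tumors.

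Expected counts were rounded and fitted with edgeR 4.0.16 in R 4.3.3 (filterByExpr with minimum count 10, TMM scaling, robust quasi-likelihood, 4 group means over all 12 libraries, two-sided tests). Calls used an adjusted p under 0.05 by Benjamini-Hochberg over 13563 genes. All 95% intervals are approximate, formed from the difference and its SE with a normal distribution. They are narrower than the edgeR test implies for so few tumors. For H2-K1 in anti-PD-1 against CK the interval was 0.02 to 0.59, although the unadjusted edgeR p was 0.057. Calls therefore rest on the tests and not on the intervals. Sums and group means used FPKM and CPM, the expected count scaled to the TMM-adjusted library size rather than to the library total. Correlations used log2 CPM with a prior count of 2. Alternatives were DESeq2 1.42.0, limma 3.58.1 on log2(FPKM + 1) and log2(FPKM + 0.1), other filters and scaling, a replicate block, only the groups compared, TPM for sums, and each tumor left out. On simulated data for anti-PD-1 against PB-020, with 13563 genes, the fit recovered 42 of 67 genes changed 1.5-fold, 51 of 67 changed 2-fold and 56 of 66 changed 3-fold, and called 11 of 13363 unchanged genes. The simulated counts held no tumor that stood apart and no reads divided between genes, so these shares need not hold for the members. Depth of 16545394 to 17217035 leaves sampling error small for the abundant members and large for H2-Q6 and the rarer ones.

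The members, lists and promoter motifs were chosen with earlier results of these data known. Named are the 10 members, the 5 genes most correlated with H2-Q6 and with H2-T23, and the list genes that differed most between anti-PD-1 and PB-020. Genes named beyond this rule were H2-Q8, H2-Q9, H2-K1, H2-D1 and markers. Sequences came from RefSeq promoters and GENCODE transcripts of GRCm38.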

Additional observations from a re-analysis of the deposited data

How the results depend on the processing

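Of the calls, H2-Q6 in anti-PD-1 against CK kept its direction in 20 of 20 alternatives and its side of the threshold in 19. The number of members called there went from 1 to 3 by DESeq2 and to 0 with only the groups compared, where 3 genes were called in place of 1120. For anti-PD-1 against PB-020, 26 genes were called by edgeR, 689 by DESeq2, 0 by limma on log2(FPKM + 1), 4 by limma on log2(FPKM + 0.1), 42 with no filter on low counts, 2 with library size scaling and 3 with only the groups compared, and DESeq2 called 2 members. For the combination against PB-020, 455 genes became 1109 by DESeq2 and 1535 with only the groups compared, and 1 member became 3 and 2. DESeq2 called 6 genes for PB-020 against CK and 1 for the combination against anti-PD-1. The causes were not tested.

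Leaving out each tumor gave 0 to 2 genes for PB-020 against CK, 137 to 1905 for anti-PD-1 against CK, 864 to 3344 for the combination against CK, 0 to 993 for anti-PD-1 against PB-020, 0 to 2 for the combination against anti-PD-1, 0 to 1269 for the combination against PB-020 and 0 to 1 for the interaction. Members called ranged from 1 to 3, 0 to 2 and 0 to 2 in anti-PD-1 against CK, anti-PD-1 against PB-020 and the combination against PB-020, and were 0 throughout in PB-020 against CK, the combination against anti-PD-1 and the interaction. The difference of H2-M3 between the combination and CK ranged from -0.00 to 0.22.

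Among sums, chosen after seeing the data, leaving out H2-Q4 moved the H2-Q log2 differences from CK from -0.01 to 0.19 (PB-020), from 0.35 to 1.18 (anti-PD-1) and from 0.29 to 1.27 (combination), while TPM gave 0.26 for the combination with H2-Q4 included. Adding H2-Q8 to H2-Q6 turned its PB-020 difference from 0.88 to -0.11, and the cause was not tested. Lists and sums without anti-PD-1 tumor 1 were likewise added after seeing the data.

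The replicate number as a block raised the 26 genes of anti-PD-1 against PB-020 to 61 and changed no member's call in the tested comparisons. Of 18 pairs with the same number, 2 had correlated deviations over 0.1, against 9 of 36 pairs with different numbers. In all, 2 of 12 tumors correlated best with their own number. The labels give only the number, and such correlations cannot show whether tumors of the same number shared anything more. Depth limits H2-Q1, H2-Q2 and H2-Q10 throughout, and sequence shared with H2-Q8 and H2-Q9 was not counted here.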

Other observations

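Of 34 other class I-like genes listed, 23 were in the table and 13 had enough counts for the test. Their median difference between anti-PD-1 and CK was -0.03, and 2 were called (edgeR), both named after their values were seen, H2-Q9 higher and Fcgrt, the neonatal Fc receptor, lower. Without anti-PD-1 tumor 1, Fcgrt alone was called. H2-M2 differed by 1.72 (SE 0.62, adjusted p = 0.097, edgeR), and by 0.72 without that tumor (adjusted p = 0.45). H2-T10, annotated as a transcribed pseudogene, differed by 0.55 (SE 0.19, adjusted p = 0.092, edgeR), beside 0.59 for H2-T22, with which its transcript was 96.9% identical over 1485 aligned columns. It stood at 3.88, 3.01 and 6.01 FPKM in CK and at 5.88, 6.58 and 6.1 in anti-PD-1, and its expected counts were not whole in any of the 12 tumors.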
